A study of Mus musculus with 8 samples.

Results

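The question here is how far the loss of the SUMO-conjugating enzyme Ubc9 and the loss of 3 linker histones move the same genes in mouse embryonic stem cells. The Ubc9 effect of a gene is the log2 ratio of Ubc9-depleted to Ubc9-WT cells, and the H1 effect is the log2 ratio of H1-TKO to H1-WT cells. Where 2 values stand in brackets after a gene, the first is its Ubc9 effect and the second its H1 effect, and a difference is the Ubc9 effect minus the H1 effect. Genes were joined by symbol, and each effect was computed within its own table because the library kits differed. A gene was kept when the mean of at least 1 of the 4 groups reached 1 CPM (counts scaled to a common library size, with TMM factors), which left 14241 of 24421 genes. Of these, 13701 were tested in both comparisons and could be sorted by direction, 447 were tested for Ubc9 alone, 48 for H1 alone and 45 in neither. At the threshold, Als2cr11 was just inside with a highest group mean of 1.00 CPM and Rab3c just outside with 0.9998 CPM, and 180 genes lay between 1 and 1.1 CPM.

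All 8 libraries were polyA-selected RNA from embryonic stem cells kept in 2i/LIF, which holds cells in the naive state, for at least 3 and at most 4 passages. Ubc9-depleted cells were of the v6.5 line and had received DOX (doxycycline) for 72 hours, and Ubc9-WT cells were of the same line, though whether they received DOX is not stated. H1-TKO cells carry a triple knockout of the linker histone genes Hist1h1c, Hist1h1d and Hist1h1e, and both they and the H1-WT cells came from an earlier publication. Each group had 2 libraries, and nothing in the labels says that these came from separate cultures, so every p-value measures only the spread between libraries. A knockout line can also differ from its control in changes gathered in culture, and how many clones were used is not stated.

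Ubc9 is the E2 enzyme through which the small protein SUMO is joined to its substrates. Many of these are chromatin proteins, and SUMO is known for keeping germline genes, retroviral repeats and genes of the 2-cell embryo silent in stem cells. Linker histone H1 binds DNA where it enters and leaves the nucleosome and helps to fold chromatin into compact fibres. H1 is itself a SUMO substrate, and the title of the series links the 2.

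Total counts over genes ranged from 44441713 to 102780141 per library, so that 3 counts correspond to 0.0292 to 0.0675 CPM. There were 2 points of unevenness within groups. In Ubc9-depleted library 1 counts fell on 23462 genes and in the remaining 3 libraries of that table on 18584 to 19591, and the H1-WT libraries differed from each other more than the H1-TKO ones did (SD of the log2 difference per gene 0.493 against 0.213). Summed over 10 stem cell markers, levels were 5024 to 5730 CPM in the Ubc9 libraries, 10798 and 10928 CPM in H1-TKO and 5917 and 6127 CPM in H1-WT. Of 15 fibroblast markers, the sum was 110 to 134 CPM in the Ubc9 libraries, 70.2 and 70.4 CPM in H1-TKO and 127 and 151 CPM in H1-WT, and 2 of the 15 were under 1 CPM in every library. Of 3 blood markers, none reached 1 CPM in any library.

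The genes deleted in H1-TKO cells were at 0 there, as labelled. Hist1h1c, Hist1h1d and Hist1h1e had 0 counts in both H1-TKO libraries and means of 1.82, 3.56 and 2.52 CPM in H1-WT, so that they were at least 32.2-, 62.9- and 44.5-fold lower, taking 3 counts per library as the limit. Replication-dependent histone transcripts mostly lack a polyA tail, and their levels in polyA-selected libraries are low. H1f0, the linker histone of slowly dividing and differentiated cells, stood at 398 and 429 CPM in H1-TKO against 43.1 and 55.3 CPM in H1-WT (effect 3.09, SE 0.23, edgeR adjusted p = 0.00059). In the Ubc9 libraries the same gene was at 52.3 and 54.2 CPM against 49.5 and 53.5 CPM, with groups that overlap, and the difference of the effects was called (-3.04, SE 0.25).

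Among the 13701 genes tested in both, 2500 (18.2%) were called higher and 2456 (17.9%) lower after Ubc9 depletion, where called means an edgeR quasi-likelihood p of 0.05 or less after Benjamini-Hochberg adjustment over all genes of that table. In H1-TKO 1176 (8.58%) were called higher and 1213 (8.85%) lower. In both comparisons 507 genes (3.7%) were higher. They made up 20.3% of the genes higher after Ubc9 depletion, against the 8.58% of all genes that were higher in H1-TKO, and 43.1% of the genes higher in H1-TKO, against the 18.2% higher after Ubc9 depletion. In both comparisons 381 genes (2.78%) were lower, 15.5% of those lower after Ubc9 depletion against a background of 8.85%, and 31.4% of those lower in H1-TKO against 17.9%. Opposite calls were fewer. Ubc9 depletion raised and H1-TKO lowered 153 genes, 6.12% of the first group and 12.6% of the second, and 139 genes went the other way, 5.66% and 11.8%. Over all genes each of these 4 shares lies below its background, which did not hold at every level (given with the levels).

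A gene called in one comparison and missed in the other does not by that show a different response, so the difference of the 2 effects was tested in a fit of all 8 libraries. The Ubc9 effect was called above the H1 effect in 1263 genes (9.22%) and below it in 1075 (7.85%). Of 3776 genes called for Ubc9 and not for H1, this difference was called in the direction of the Ubc9 effect for 383 higher and 297 lower genes, while for the other 3096 it was not called or, in 2 genes, was called the other way. Of 1209 genes called for H1 and not for Ubc9, the difference was called for 385 higher and 507 lower genes and not called for 317. Most genes called for Ubc9 and not for H1 are therefore not shown to differ between the comparisons, while for most called for H1 and not for Ubc9 the difference was called. The second statement rests on Ubc9-depleted library 1, since without it the difference was not called for 673 of 1182 such genes, and without Ubc9-WT library 1 or 2 it was not called for 849 of 1781 or 872 of 1810. In neither comparison were 7536 genes (55%) called. With library totals as the only scaling, the median Ubc9 effect moved from -0.03 to 0.16 and the share of higher genes among the Ubc9 calls from 50.4% to 74.7%, and the median H1 effect from -0.03 to -0.11, and Ubc9 directions hold relative to that shift.

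**Figure D1:**
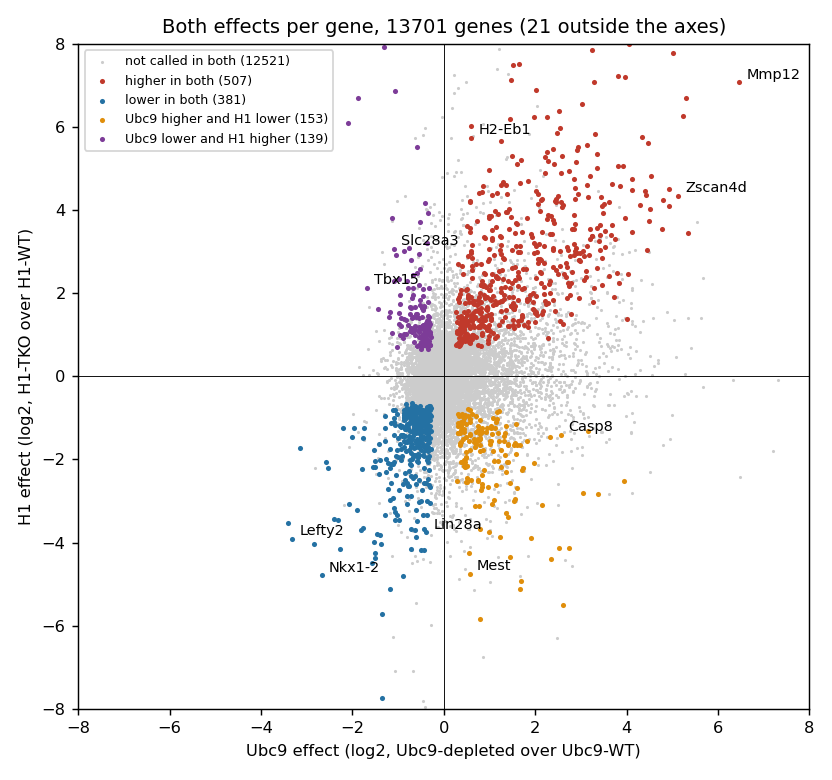
The Ubc9 effect (x axis, log2) is plotted against the H1 effect (y axis, log2) for the 13701 genes tested in both comparisons, each point a gene, with the 4 classes called in both comparisons in colour and 21 genes outside the axes. The upper right holds 507 coloured genes and the lower left 381, against 153 and 139 in the opposite corners.

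Across all 13701 genes the effects had a Pearson correlation of 0.31 and a Spearman correlation of 0.21, and over the 1180 genes called in both 0.61 and 0.59. These describe genes, which are not independent replicates, and the comparisons share no library. The H1 effect was the larger of the pair in 407 of the 507 genes higher in both (median 2.38 against 1.48) and in 360 of the 381 lower in both (median -1.32 against -0.62). Errors were wider in the H1 table, with a median SE of 0.26 against 0.13 in the Ubc9 table, so that a larger effect was needed for a call. The difference was called with the H1 effect larger in 142 and 117 of these genes and with the Ubc9 effect larger in 7 and 1. Both effects were 2-fold or more in 323 of the 507 and in 64 of the 381. Leaving out Ubc9-depleted library 1 gave 485 genes higher in both, 442 of them among the 507, and 409 lower in both, 338 among the 381. Without H1-WT library 1 or 2 the counts were 919 or 882 higher and 900 or 1096 lower, and without an H1-TKO library 313 or 301 and 145 or 138. Without Ubc9-WT library 1 or 2 they were 294 or 285 higher and 206 or 193 lower.

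Part of the overlap goes with level. In genes with a control mean (over Ubc9-WT and H1-WT) under 1 CPM, 21.5% of those higher after Ubc9 depletion were also higher in H1-TKO, close to the 18.2% of all genes of that level, which are in the set only because another group reached 1 CPM. In the next bins the shares were 22.1% against 12.2% (1 to 10 CPM), 16.8% against 6.42% (10 to 100 CPM) and 8.89% against 3.48% (over 100 CPM). The same held for genes lower in both, with 21.9% against 11.6%, 16.2% against 9.56% and 12.5% against 7.08% in the same 3 bins. Opposite calls were not below the background in every bin. Of genes higher after Ubc9 depletion, 7.14%, 10.4% and 8.89% were lower in H1-TKO in these bins, against 11.6%, 9.56% and 7.08% of all genes. Of genes lower after Ubc9 depletion, 13.3%, 6.10% and 2.87% were higher in H1-TKO, against 12.2%, 6.42% and 3.48%. No gene under 1 CPM was called lower after Ubc9 depletion. The genes higher in both had low control levels, with medians of 3.13 CPM in Ubc9-WT and 1.60 CPM in H1-WT, while those lower in both were at 37.7 and 45.9 CPM, against 19.9 and 19.5 CPM over all genes tested.

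**Figure D2:**
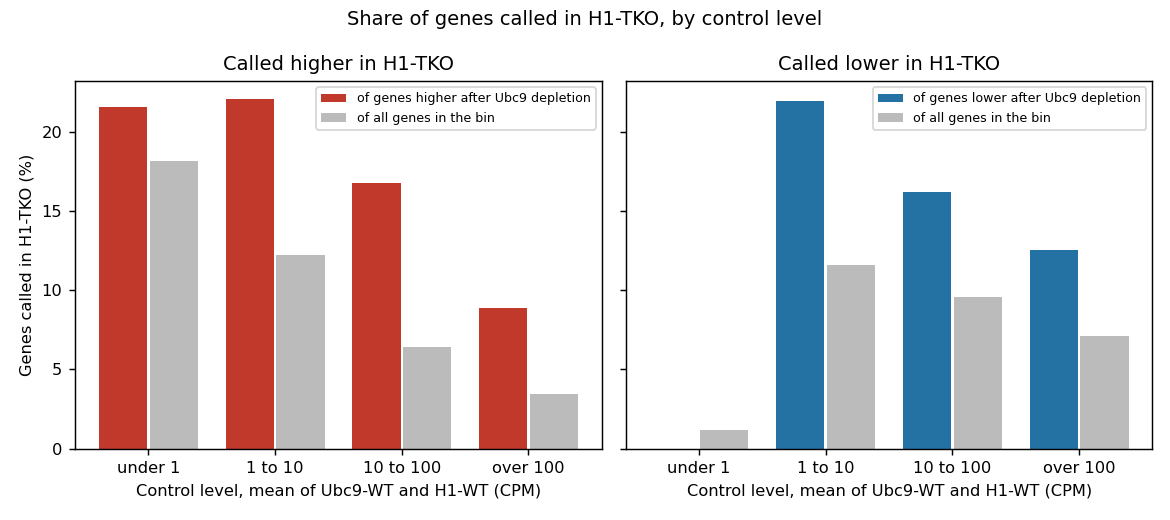
Bars give the percentage of genes called in H1-TKO (y axis, higher at left, lower at right) by control level (x axis, CPM), in colour for the genes called in the same direction after Ubc9 depletion and in grey for all genes of the bin. Above 1 CPM every coloured bar exceeds its grey neighbour, and under 1 CPM the bars for higher genes are 21.5% and 18.2%.

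Genes of the 2-cell embryo were mostly higher in both. These genes, switched on when the mouse zygote first transcribes its genome, are also active in a rare state of stem cell cultures. Of 39 listed genes tested in both comparisons 27 were higher in both (3.7% over all genes, not matched for level) and 0 were lower in either. The medians were 3.46 (Ubc9) and 3.65 (H1), against -0.03 and -0.03 over all genes. Leaving out any library gave 24 to 33. Some of these genes were kept only through a treated group, such as Spz1 at 0.311 CPM in Ubc9-WT and 0.00845 CPM in H1-WT. Of 1332 genes averaging below 1 CPM over the controls, 154 were higher in both, 0 lower after Ubc9 depletion and 16 lower in H1-TKO. A count of 0 lower therefore says little for such genes. With a cut of 5 CPM, 26 of 35 listed genes were higher in both, against 382 of 11120 genes. A treated group alone can pass that cut too. Zscan4d, one of the Zscan4 genes that act at telomeres, was at 121 and 131 CPM in Ubc9-depleted and 4.11 and 3.29 CPM in Ubc9-WT. It was at 23.6 and 23.0 CPM in H1-TKO and 1.89 and 0.422 CPM in H1-WT. The treated libraries lay above the controls in both comparisons, with effects of 5.12 (SE 0.15) and 4.35 (SE 0.58). Zscan4a, Zscan4b, Zscan4c and Zscan4f had Ubc9 effects of 3.96, 4.93, 4.52 and 4.53 and H1 effects of 3.81, 4.10, 4.02 and 4.83. Although the log2 effects were of like size, levels were not: Ubc9-depleted libraries held more Zscan4d than H1-TKO ones, and so did Ubc9-WT than H1-WT, in tables that were made with different kits and normalised apart.

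Others of the list lie in repeated families too. Usp17le, of a family of deubiquitinating enzymes, was at 80.7 and 100.3 CPM in Ubc9-depleted and 4.65 and 3.5 CPM in Ubc9-WT, and at 18.9 and 19.2 CPM in H1-TKO and 1.42 and 1.48 CPM in H1-WT. Tcstv1 was at 6.82 and 8.34 CPM against 0.626 and 0.624 CPM in the Ubc9 libraries and at 5.90 and 4.82 CPM against 0.541 and 0.0384 CPM in the H1 libraries. Both were higher in every treated library. Arg2, a single-copy gene for the mitochondrial arginase, rose from 1.43 and 1.03 CPM to 14.0 and 16.9 CPM on Ubc9 depletion and from 0.237 and 0.614 CPM to 4.84 and 5.62 CPM in H1-TKO, with effects of 3.68 and 3.65 and a difference of 0.00 (SE 0.28). Acot1, an acyl-CoA thioesterase, moved by 3.36 and 3.57.

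Dux, which encodes a transcription factor that switches this programme on, was called for Ubc9 only. It was at 1.34 and 0.960 CPM in Ubc9-depleted and 0.0626 and 0.0328 CPM in Ubc9-WT libraries (effect 4.59, SE 0.90, edgeR adjusted p = 0.00022). H1-TKO libraries had 0.226 and 0.227 CPM and H1-WT 0.169 and 0 CPM, which are 10, 15, 10 and 0 counts, and the difference of the effects was not called (3.15, SE 1.74, edgeR adjusted p = 0.26). Obox6, a homeobox gene, rose on Ubc9 depletion (8.0 and 7.72 CPM against 4.05 and 3.93 CPM) and was at 15.5 and 19.8 CPM in H1-TKO and 23.9 and 25.5 CPM in H1-WT, a fall that was not called while the difference was (1.45, SE 0.25). The sum of 9 markers of 2-cell-like cells was 355 and 388 CPM in Ubc9-depleted, 19.3 and 20.8 CPM in Ubc9-WT, 84.5 and 88.8 CPM in H1-TKO and 3.57 and 5.91 CPM in H1-WT. In bulk RNA, more cells in this state and more RNA per such cell cannot be told apart.

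The start regions of 4 Zscan4 genes on chromosome 7 are shown because they are nearly the same. Whether the transcripts are as alike, and how reads that match several copies were counted, was not examined. The copies are therefore not treated as independent genes. They run 250 bases before to 50 after the RefSeq start (GRCm38.p6), 5′ to 3′ on the gene's strand, at chr7:10905001-10905300 (minus), chr7:11005495-11005794 (plus), chr7:11166099-11166398 (minus) and chr7:11397665-11397964 (plus). Capitals mark the longest run shared letter for letter by all 4, which is 55 bases long and starts with a TATA-type stretch.
Zscan4b: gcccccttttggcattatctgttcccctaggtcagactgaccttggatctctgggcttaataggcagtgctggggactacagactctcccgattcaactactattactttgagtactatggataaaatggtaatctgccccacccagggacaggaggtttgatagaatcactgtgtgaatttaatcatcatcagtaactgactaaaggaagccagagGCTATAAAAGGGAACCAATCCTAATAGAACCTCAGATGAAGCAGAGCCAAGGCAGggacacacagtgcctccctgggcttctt
Zscan4c: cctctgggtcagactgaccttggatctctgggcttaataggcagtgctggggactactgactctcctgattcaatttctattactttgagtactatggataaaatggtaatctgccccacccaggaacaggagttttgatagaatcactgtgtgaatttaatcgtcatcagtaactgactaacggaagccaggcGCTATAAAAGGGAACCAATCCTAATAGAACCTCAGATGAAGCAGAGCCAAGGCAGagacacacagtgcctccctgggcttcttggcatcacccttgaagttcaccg
Zscan4d: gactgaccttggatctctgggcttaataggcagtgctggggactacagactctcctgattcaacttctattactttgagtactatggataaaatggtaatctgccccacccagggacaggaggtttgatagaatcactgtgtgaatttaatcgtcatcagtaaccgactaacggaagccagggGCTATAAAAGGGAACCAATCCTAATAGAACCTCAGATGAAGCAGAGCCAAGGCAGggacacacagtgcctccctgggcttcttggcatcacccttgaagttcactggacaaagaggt
Zscan4f: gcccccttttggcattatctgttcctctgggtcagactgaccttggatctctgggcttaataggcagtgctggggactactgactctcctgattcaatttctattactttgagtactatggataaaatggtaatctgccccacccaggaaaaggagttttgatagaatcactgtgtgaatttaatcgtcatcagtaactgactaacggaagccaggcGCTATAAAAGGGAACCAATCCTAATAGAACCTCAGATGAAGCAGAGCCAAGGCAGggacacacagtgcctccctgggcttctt
In the genome the genes higher in both also came in runs: all 5 Zscan4 genes tested within chr7:10794242-11402318, all 6 genes tested within chr13:119893388-120318178 around Tcstv1 and Tcstv3, and 7 of 10 within chr4:143267431-144364419, among them Pramef25 and Pramef17, were in this class (GENCODE M21, GRCm38). Each span was cut at the first and last gene of the class in the run, so that a full count is partly set by the search. Genes lower in both came in runs too, such as 6 of 12 tested within chr6:82618992-83080855 and 6 of 45 within chr11:68943155-69895539. This search of runs was made after the values were seen.

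The major histocompatibility region gave a further run. Within chr17:34181987-34316674, a span cut in the same way, all 4 genes tested, Psmb9, Tap1, H2-Ab1 and H2-Eb1, were higher in both. Tap1, a subunit of the transporter that loads peptides for class I presentation, was at 6.83 and 6.73 CPM in Ubc9-depleted, 1.11 and 0.986 CPM in Ubc9-WT, 8.02 and 9.33 CPM in H1-TKO and 2.04 and 1.71 CPM in H1-WT libraries, effects of 2.73 (SE 0.26) and 2.24 (SE 0.29). The groups do not overlap in either comparison. H2-Eb1, a class II chain, was at 18.6 and 17.6 CPM in H1-TKO against 0.321 and 0.365 CPM in H1-WT but only at 18.6 and 20.9 CPM against 13.2 and 13.5 CPM in the Ubc9 libraries, and its H1 effect was called larger (difference -5.17, SE 0.27). Of 16 interferon response genes tested, Psmb9 and Tap1 were among those higher in both and Irf1 was lower in both, at -0.72 and -1.02.

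Germline and meiosis genes moved less evenly. Of 36 tested, 22 were higher after Ubc9 depletion (18.2% over all genes) and 9 in H1-TKO (8.58% over all genes), and 5, Brdt, Dazl, Stk31, Tdrd9 and Tex101, were higher in both (3.7% over all genes). Leaving out an H1-WT library gave 12 or 8 higher in both, leaving out an H1-TKO library gave 3, and the count without Ubc9-depleted library 1 was 5. Without a Ubc9-WT library 11 were higher after Ubc9 depletion. The shares over all genes take no account of level, and low germline genes could enter through a treated group. Mei1, with a mean of 0.021 CPM in Ubc9-WT, did so. With a cut of 5 CPM, 13 of 26 germline genes were higher after Ubc9 depletion, against 1606 of 11120 genes. In H1-TKO 7 of the 26 were higher, against 942 of the 11120. Dazl, an RNA-binding protein of germ cells, was at 165 and 176 CPM in Ubc9-depleted and 56.7 and 66.2 CPM in Ubc9-WT, and at 95.5 and 102 CPM in H1-TKO and 40.6 and 24.6 CPM in H1-WT. Its effects were 1.5 and 1.63, with no overlap between groups. Tex101, a sperm surface protein, had an H1 effect of 4.39 (6.19 and 7.53 CPM against 0.372 and 0.288 CPM), called larger than its Ubc9 effect of 2.07 (difference -2.35, SE 0.39). Hormad2, a protein of the meiotic chromosome axis, was lower after Ubc9 depletion (-0.70) and higher in H1-TKO (1.40).

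Single genes of other lists were higher in both. Dnmt3l, the cofactor of the de novo DNA methyltransferases, was at 86.1 and 108 CPM in Ubc9-depleted and 32.6 and 34.1 CPM in Ubc9-WT libraries, and at 125 and 133 CPM in H1-TKO and 17.4 and 24.5 CPM in H1-WT. No library of a treated group overlapped its controls, and the H1 effect was called the larger (2.64 against 1.57, difference -1.10, SE 0.27). Id3, an inhibitor of helix-loop-helix factors that BMP signalling raises, had effects of 1.61 and 2.99, and Inhbb, the activin beta-B chain, of 1.66 and 2.37. Of 28 p53 targets 12 were higher and 2 lower after Ubc9 depletion (18.2% and 17.9% over all genes). In H1-TKO 3 were higher and 4 lower (8.58% and 8.85% over all genes). Btg2 (0.39 and 1.13), Ccng1 (0.41 and 1.30) and Plk2 (0.54 and 1.78) were higher in both, and Gadd45a (1.02 and -1.62) and Gdf15 (0.70 and -1.35) opposite. The latter 2 lie on chromosomes 6 and 8. In the fit without these chromosomes 0 of 24 p53 targets were opposite and 1 was lower in H1-TKO. Without Ubc9-WT library 1 or 2 the 12 became 2 or 4 and 0 p53 targets were higher in both, and without H1-WT library 1 or 2 these were 7 or 6. Imprinted genes went both ways. Igf2r (0.39 and 0.89), the clearance receptor for IGF2, and Ndn (0.85 and 1.04) were higher in both, and Peg3 (-0.62 and -1.70), Zdbf2 (-0.57 and -1.93) and Ddc (-0.57 and -1.07) lower in both. H19, the maternally expressed RNA beside Igf2, had 0 counts in both H1-WT libraries and 4.23 and 4.85 CPM in H1-TKO, at least 83.9-fold higher taking 3 counts per library as the limit, and 4.73 and 3.13 CPM against 2.06 and 1.78 CPM in the Ubc9 libraries (effect 1.07).

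**Figure D3:**
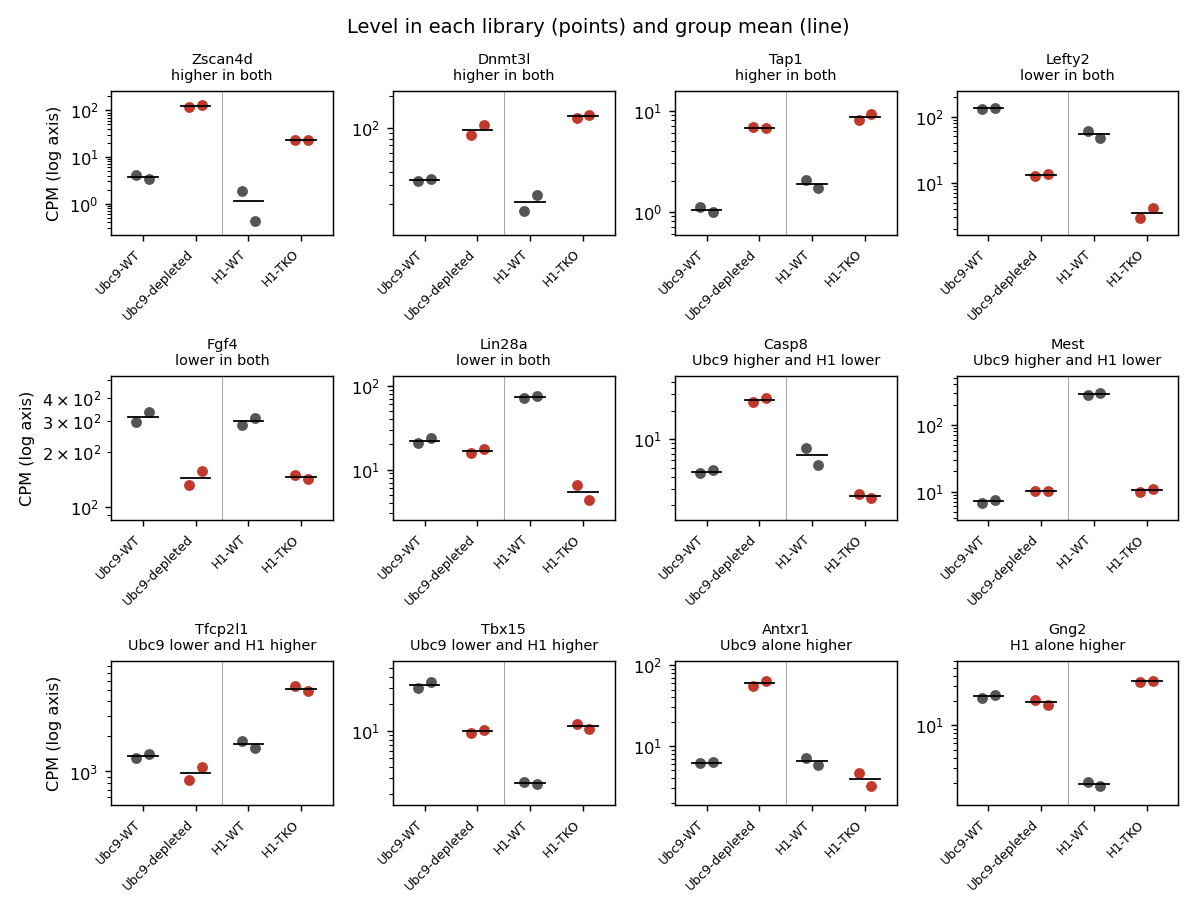
Each panel gives the CPM (log axis) of a gene in the 4 groups, with a point for each library and a line at the group mean. Within each comparison the points of Zscan4d, Dnmt3l and Tap1 are above their controls, those of Lefty2, Fgf4 and Lin28a below, and those of Casp8, Mest, Tfcp2l1 and Tbx15 on opposite sides in the 2 comparisons.

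The genes lower in both included several of Nodal and FGF signalling, the pathways by which stem cells leave the naive state. Most listed genes of these pathways were not in this class. Lefty2, a secreted Nodal antagonist and direct Nodal target, was at 12.6 and 13.5 CPM in Ubc9-depleted and 131 and 135 CPM in Ubc9-WT, and at 2.94 and 4.13 CPM in H1-TKO and 61.4 and 47.1 CPM in H1-WT. Every treated library was far below its controls, with effects of -3.31 (SE 0.13, edgeR adjusted p = 7.5e-19) and -3.90 (SE 0.28, edgeR adjusted p = 0.00055) and no called difference (0.57, SE 0.28). Lefty1, its neighbour in function, was low, with effects of -2.20 and -1.24, and Acvr1b, the type I receptor of Nodal and activin, had -0.66 and -0.91. Of 28 Nodal and TGF-beta genes tested, these 3 were lower in both (2.78% over all genes). Id3 and Inhbb were higher in both (3.7% over all genes) and Tgfb1 was opposite. The list had medians of -0.09 (0.11 on library totals alone) and -0.14.

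Fgf4, the ligand that drives ERK signalling in the early embryo, was at 133 and 158 CPM in Ubc9-depleted and 294 and 336 CPM in Ubc9-WT, and at 149 and 143 CPM in H1-TKO and 284 and 311 CPM in H1-WT. All 4 control libraries stood between 284 and 336 CPM and all 4 treated ones between 133 and 158 CPM, with effects of -1.09 (SE 0.13) and -1.0 (SE 0.18). Rasgrp1, an exchange factor that loads Ras with GTP, was at 3.33 and 1.72 CPM in Ubc9-depleted against 18.8 and 18.8 CPM and at 0.927 and 0.544 CPM in H1-TKO against 14.3 and 9.80 CPM. The effects were -2.83 and -4.03. Of 19 Ras-ERK feedback genes 2, Rasgrp1 among them, were lower in both (2.78% over all genes). Phlda1 was the 1 that was higher in both (0.94 and 1.60), against 3.7% over all genes. The list medians were above 0, at 0.48 and 0.30. After Ubc9 depletion 9 of the list were higher and 5 lower (18.2% and 17.9% over all genes). In H1-TKO 3 were higher and 2 lower (8.58% and 8.85% over all genes). Of 11 mesendoderm genes, T (-0.93 and -2.02), the Brachyury factor of the primitive streak, and Cdx1 (-1.02 and -1.77) were lower in both (2.78% over all genes). Eomes was lower after Ubc9 depletion (-0.45) and higher in H1-TKO (1.15).

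Nkx1-2, a homeobox gene of the caudal epiblast, was among those with large effects in both, at 1.1 and 0.539 CPM against 5.61 and 5.22 CPM in the Ubc9 libraries and 0.881 and 0.711 CPM against 23.1 and 21.4 CPM in the H1 libraries. Its H1 effect was called larger (-4.78 against -2.67). Ngfr, the low-affinity neurotrophin receptor, had effects of -2.53 and -2.19, Ap3b2, a neuronal vesicle adaptor subunit, of -2.40 and -3.43, and Ffar2, a receptor for short-chain fatty acids, of -2.32 and -3.47. Krt42 (-2.08 and -3.07), Gstm3 (-2.57 and -2.05), Htr5a (-1.90 and -3.21) and Cap2 (-1.81 and -3.70) complete the 10 genes with the largest smaller effect. For Htr5a and Cap2 the difference was called too, with the H1 effect larger. Lin28a, which blocks maturation of the let-7 miRNAs, was at 6.46 and 4.31 CPM in H1-TKO against 71.3 and 75.5 CPM in H1-WT but at 16.0 and 17.4 CPM against 20.8 and 23.6 CPM in the Ubc9 libraries. Both falls were called and the difference as well (3.35, SE 0.28). Ccne1, cyclin E1, had effects of -1.02 and -0.91, and Cdh1, E-cadherin, of -0.66 and -1.25.

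The CG content of start regions, a property no rule used, is given here by class with no test. In the 300-base start regions of RefSeq (GRCm38.p6), found for 10657 of the genes tested in both, the median ratio of observed to expected CG dinucleotides was 0.63 in genes higher in both (355 matched) and 0.75 in genes lower in both (302 matched), against 0.76 over all matched genes. A ratio under 0.4 was found in 29.3% and 20.2% of these against 14.5%. The median was 0.63 in both opposite classes, 0.68 in genes higher in H1-TKO alone, 0.66 in those lower there alone and 0.70 in genes higher after Ubc9 depletion alone (21.3% under 0.4), while genes lower after Ubc9 depletion alone were at 0.77. The motif TCCCGC on either strand, the core of an E2F site, was in 30.1% of start regions of genes higher in both and 42.7% of genes lower in both, against 36.5% of matched genes and 26.2% of all 17607 start regions. It was in 40.1% of genes lower after Ubc9 depletion alone and 39.8% of those lower there and higher in H1-TKO. The remaining called classes were at 31.2%, 35.5%, 33.0% and 34.5%. E-box, CRE, TATA, CCAAT and TCF motifs were searched too and are not described. Level and CG content go together in mammalian genes, and the classes differed in level too, so what part level had in these shares was not tested. Mmp12, a macrophage elastase, is shown as an example with a ratio of 0. Fgf4 is shown as an example with a ratio of 0.77, near the median over all matched genes. Each CG is in capitals. They lie at chr9:7344147-7344446 (plus) and chr7:144861136-144861435 (plus), with 0 and 28 CG.
Mmp12: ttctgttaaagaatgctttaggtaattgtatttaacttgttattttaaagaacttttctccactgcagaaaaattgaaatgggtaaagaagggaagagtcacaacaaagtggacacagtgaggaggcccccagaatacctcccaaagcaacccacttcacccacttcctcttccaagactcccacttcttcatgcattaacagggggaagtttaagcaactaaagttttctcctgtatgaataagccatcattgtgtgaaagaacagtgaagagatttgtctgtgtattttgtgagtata
Fgf4: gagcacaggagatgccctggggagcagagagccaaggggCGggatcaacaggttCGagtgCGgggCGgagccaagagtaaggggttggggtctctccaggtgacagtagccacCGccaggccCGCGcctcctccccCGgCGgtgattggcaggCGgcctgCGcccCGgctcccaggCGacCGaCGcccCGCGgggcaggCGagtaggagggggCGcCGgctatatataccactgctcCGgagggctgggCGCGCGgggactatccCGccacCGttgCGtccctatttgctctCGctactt
Mmp12, picked for show after its values were seen, was at 97.2 and 117 CPM in Ubc9-depleted and 1.22 and 1.25 CPM in Ubc9-WT, and at 1.42 and 1.53 CPM in H1-TKO and 0.0169 and 0 CPM in H1-WT. It was higher in both, though H1-WT held at most 1 count of it, so no size is given for its H1 effect.

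Ubc9 depletion raised and H1-TKO lowered 153 genes. Casp8, the initiator caspase of death receptor signalling, was at 24.6 and 27.4 CPM in Ubc9-depleted and 4.34 and 4.68 CPM in Ubc9-WT, and at 2.62 and 2.36 CPM in H1-TKO and 8.11 and 5.33 CPM in H1-WT. The effects were 2.56 (SE 0.12) and -1.40 (SE 0.32), with no overlap between groups in either. Sft2d2 went from 7.88 and 9.46 CPM up to 22.2 and 23.0 CPM on Ubc9 depletion and from 32.3 and 39.1 CPM down to 7.12 and 9.60 CPM in H1-TKO. Cntln (1.59 and -2.68), Nbea (1.55 and -1.61), Raver2 (1.60 and -1.65) and Rnf144a (1.67 and -1.64) were likewise opposite. Dnmt3a, a de novo DNA methyltransferase, rose slightly with Ubc9 depletion (48.6 and 55.6 CPM against 40.1 and 41.7 CPM) and fell in H1-TKO (17.5 and 17.9 CPM against 37.8 and 42.1 CPM), the reverse of Dnmt3l in the second comparison. With Lin28b (1.04 and -1.39) it was 1 of 2 opposite genes among 15 formative and primed genes, whose medians were 0.27 and -0.80. Mest, an imprinted gene of the hydrolase fold family, was at 9.97 and 10.9 CPM in H1-TKO and 277 and 295 CPM in H1-WT but at 10.3 and 10.2 CPM and 6.79 and 7.47 CPM in the Ubc9 libraries. Without Ubc9-WT library 1 or 2 the 153 became 66 or 64, without H1-TKO library 1 or 2 73 or 72, and without H1-WT library 1 or 2 364 or 359.

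The other opposite class held 139 genes, lower after Ubc9 depletion and higher in H1-TKO. Tbx15, a T-box factor of limb and muscle, was at 9.51 and 10.2 CPM in Ubc9-depleted and 30.2 and 34.9 CPM in Ubc9-WT, and at 12 and 10.6 CPM in H1-TKO and 2.72 and 2.55 CPM in H1-WT. Its effects were -1.69 (SE 0.11) and 2.13 (SE 0.26). Tfcp2l1, a transcription factor of naive pluripotency, was at 844 and 1091 CPM against 1294 and 1413 CPM in the Ubc9 libraries and at 5361 and 4872 CPM against 1831 and 1593 CPM in the H1 libraries. Il6st, the gp130 chain of the LIF receptor, moved by -0.51 and 0.84. Tfap2a (-0.73 and 1.1), a trophectoderm factor, Aurka (-0.51 and 0.67), a mitotic kinase, and the X-linked homeobox gene Rhox5 (-0.53 and 1.71) belong here. So do Slc28a3, a nucleoside carrier (-1.09 and 3.07), Cbr3, a carbonyl reductase (-1.17 and 1.55), Exph5 (-1.45 and 1.63), Pnma5 (-1.20 and 1.42) and Pof1b (-1.08 and 2.30). In each list, opposite calls of this kind were at most 2 genes. Without Ubc9-WT library 1 or 2 the 139 became 65 or 60, without H1-TKO library 1 or 2 54 or 50, without H1-WT library 1 or 2 515 or 557, and without Ubc9-depleted library 2 231.

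Genes of the Ubc9 class alone were not called in H1-TKO, which does not mean that they were unmoved there. Their median H1 effect was -0.57 in the 383 higher genes and 0.49 in the 297 lower ones. Genes that rose with Ubc9 depletion alone, with a called difference, included Antxr1, an anthrax toxin receptor of the cell surface. It was at 56.1 and 64.3 CPM in Ubc9-depleted and 6.14 and 6.36 CPM in Ubc9-WT, and at 4.61 and 3.24 CPM in H1-TKO and 7.11 and 5.89 CPM in H1-WT. The Ubc9 effect was 3.30, and the difference from the H1 effect was 3.99 (SE 0.28, edgeR adjusted p = 2.7e-05). Asb13 (3.30 and -0.35), Mrc1, the mannose receptor (2.70 and -0.63), Zfp423 (2.38 and -0.39), Hook1 (1.18 and -1.65) and Clca3b (1.68 and -0.94) were the other genes with the widest differences. The integrated stress response, through which cells slow translation and raise ATF4 targets, had 5 of its 26 listed genes in this class, Atf3, Ddit3, Trib3, Herpud1 and Aldh1l2, and Mthfd2 and Nupr1 in the opposite class. Ddit3, the CHOP factor, was at 28.5 and 33.1 CPM against 15.7 and 16.4 CPM in the Ubc9 libraries and at 18.1 and 22.0 CPM against 20.9 and 20.0 CPM in the H1 libraries, where the groups overlap. The list had 11 genes higher and 0 lower after Ubc9 depletion (18.2% and 17.9% over all genes). In H1-TKO 1 was higher and 4 were lower (8.58% and 8.85% over all genes). Leaving out Ubc9-WT library 1 or 2 reduced the 11 to 4, leaving out H1-TKO library 1 or 2 reduced the 4 to 1, and leaving out H1-WT library 1 or 2 gave 13 or 9 lower in H1-TKO. The 11 were 7 with DESeq2 and 19 on library totals alone, and the 4 were 8 with DESeq2 and 7 with the replicate block. Without Ubc9-depleted library 1 the class of genes raised by Ubc9 depletion alone fell from 383 to 177, of which 172 were shared, and it was 226 or 209 without Ubc9-WT library 1 or 2 and 607 without H1-WT library 2.

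More than the background share of replication and division genes was called lower after Ubc9 depletion (17.9% over all genes). The S-phase share lower in H1-TKO was near the 8.85% over all genes. These shares take no account of level. Of 2358 genes with a control mean over 100 CPM, 767 were lower and 45 higher after Ubc9 depletion. Mcm10, Rrm2, Cenpf and Nusap1 of these lists were at 334, 227, 779 and 217 CPM in Ubc9-WT. What part level had was not tested. Of 27 S-phase genes 16 were lower and 0 higher after Ubc9 depletion, and 2 lower and 0 higher in H1-TKO, but the difference was called in the Ubc9 direction for 3 alone, Cdc45, E2f1 and Fen1. Of 25 G2/M genes 15 were lower and 0 higher after Ubc9 depletion, and Aurka was the 1 called in H1-TKO. On library totals alone 11 of the S-phase and 11 of the G2/M genes were lower after Ubc9 depletion. Falls were small, with list medians of -0.38 (Ubc9) and -0.11 and -0.12 (H1). Without Ubc9-WT library 1 or 2 the 16 became 7 or 8 and the 15 became 0, and without Ubc9-depleted library 2 the 15 became 24. Without H1-WT library 1 or 2, 8 or 9 of the S-phase genes were lower in H1-TKO and 3 or 6 higher. Of 38 repressors of the 2-cell programme 14 were lower, among them Uhrf1 (-0.83) and Pcgf6 (-0.59), and 0 higher after Ubc9 depletion (17.9% and 18.2% over all genes, not matched for level). On library totals alone this was 6 and 6, without Ubc9-WT library 1 or 2 it was 3 or 2 lower, and without Ubc9-depleted library 2 it was 27. In H1-TKO 3 of these repressors were higher and 3 lower, and Cbx3, a heterochromatin protein HP1, was with Lin28a lower in both (-0.34 and -1.97). Among the genes with the widest differences that fell with Ubc9 depletion alone were Mypn (-1.48 and 1.09), Nkain4 (-1.43 and 0.86), Mgarp (-0.97 and 1.17), Trim54 (-1.20 and 0.92) and Calr4 (-1.14 and 0.79), and without Ubc9-depleted library 1 this class fell from 297 to 85 genes, without Ubc9-depleted library 2 to 195 and without Ubc9-WT library 1 or 2 to 123 or 114, and it was 457 without H1-WT library 1.

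In H1-TKO alone, Gng2, a G protein gamma subunit, was at 33.5 and 34.7 CPM against 2.04 and 1.84 CPM in H1-WT, while the Ubc9 libraries had 20.0 and 17.8 CPM and 21.5 and 23.6 CPM. The H1 effect was 4.16 (SE 0.24), and the difference -4.39 (SE 0.24). Aox3, an aldehyde oxidase (4.80), Ido2 (4.03), Glrx, glutaredoxin (3.69), Stard8 (3.66) and Mid1 (3.63) had H1 effects of like size and Ubc9 effects from -0.39 to 0.10. Of 15 trophectoderm genes 6 were higher and 1 lower in H1-TKO, and 3 higher and 5 lower after Ubc9 depletion, which became 0 and 1 without either Ubc9-WT library. Over all genes 8.58% were higher and 8.85% lower in H1-TKO, and 18.2% higher and 17.9% lower after Ubc9 depletion. Among the trophectoderm genes, Krt18, a keratin of simple epithelia, was at 72.2 and 79.2 CPM against 5.71 and 7.81 CPM, Krt8 at 55.1 and 53.4 CPM against 13.6 and 20.7 CPM, and Krt7 moved by 3.82, all in the H1 class alone. Krt19 (0.84 and 2.43) was higher in H1-TKO with no called difference (edgeR adjusted p = 0.064). Of 6 Rhox genes tested, which are X-linked homeobox genes of the germline and placenta, 5 were higher in H1-TKO whichever library was left out, with a median H1 effect of 2.84 against a Ubc9 median of -0.01 (0.18 on library totals alone). Rhox6 (3.15) and Rhox9 (3.28) were in the H1 class alone, and Rhox13 was higher in both (1.20 and 2.54). The 385 genes higher in H1-TKO alone became 241 or 219 without Ubc9-depleted library 1 or 2, 194 or 188 without H1-TKO library 1 or 2 and 1317 or 1669 without H1-WT library 1 or 2.

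Genes lower in H1-TKO alone included Steap2, a metalloreductase, at 2.03 and 2.43 CPM in H1-TKO against 32.0 and 26.4 CPM in H1-WT and 9.87 and 7.64 CPM and 7.95 and 7.54 CPM in the Ubc9 libraries. Srcin1 (-3.63), Ttyh1 (-3.39), Svip (-3.28), Polr3gl (-3.27) and Apod, a lipocalin (-3.22), followed. The 507 genes of this class became 268 or 261 without Ubc9-depleted library 1 or 2, 259 or 238 without H1-TKO library 1 or 2 and 1136 or 1544 without H1-WT library 1 or 2. Hox genes, which pattern the body axis and are held silent by Polycomb in stem cells, went different ways by cluster. Of 25 tested, 9 were lower and 3 higher in H1-TKO (8.85% and 8.58% over all genes). Hoxd4, Hoxd8 and Hoxd9 were higher in H1-TKO alone, with Hoxd9 at 16.0 and 16.4 CPM against 1.05 and 1.13 CPM. Hoxa2, Hoxa4 and Hoxa5 were lower there alone, Hoxa9 (-1.07 and -3.46) and Hoxc4 (-0.75 and -1.78) were among those lower in both, and Hoxa3 was opposite (1.37 and -3.30). Hoxa3 was at 3.39 and 1.01 CPM in Ubc9-depleted and 0.959 and 0.799 CPM in Ubc9-WT. With DESeq2, no filter, library totals alone or the replicate block, 0 genes of the list were opposite in this way, and 1 was with RLE factors. Without H1-TKO library 2 the 9 became 5, and in the fit without chromosomes 6 and 8, which leaves out the HoxA cluster on chromosome 6, they became 2. The Ubc9 direction of this list rests on 1 library, since its median was 0.16 with 4 genes lower in all libraries and -0.57 with 11 lower without Ubc9-depleted library 1.

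Chromosomes 6 and 8 carried much of what was lower in H1-TKO, and the Hoxa cluster lies on chromosome 6. The median H1 effect was -0.46 on chromosome 6 and -0.54 on chromosome 8, against -0.10 to 0.21 on the others, and 28.9% and 23.5% of their genes were called lower in H1-TKO, against 3.66% to 10.2% elsewhere. The median Ubc9 effect was between -0.08 and 0.02 on every chromosome (Y left out). Of all genes tested in both 10.1% lie on these chromosomes, yet they held 28.6% of the genes lower in both (109), 19.6% of those raised by Ubc9 depletion and lowered in H1-TKO (30) and 33.3% of those lower in H1-TKO alone (169). Genes higher in both were at 7.10%. Of the genes described here with an H1 effect below 0, Mest, Mthfd2, Cbx3, Antxr1, Gadd45a and the Hoxa genes lie on chromosome 6. Mt1, Mt2, Nqo1, Cdh1, Herpud1, Gdf15 and Zfp423 lie on chromosome 8, while Lefty2, Fgf4, Rasgrp1 and Lin28a lie elsewhere. Copy number was not measured, and its part in these results was not tested. Fitted without chromosomes 6 and 8 there were 431 genes higher in both and 278 lower in both, the latter 12.6% of the genes lower after Ubc9 depletion against a background of 7.0%, and the correlation over all genes was 0.31.

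**Figure D4:**
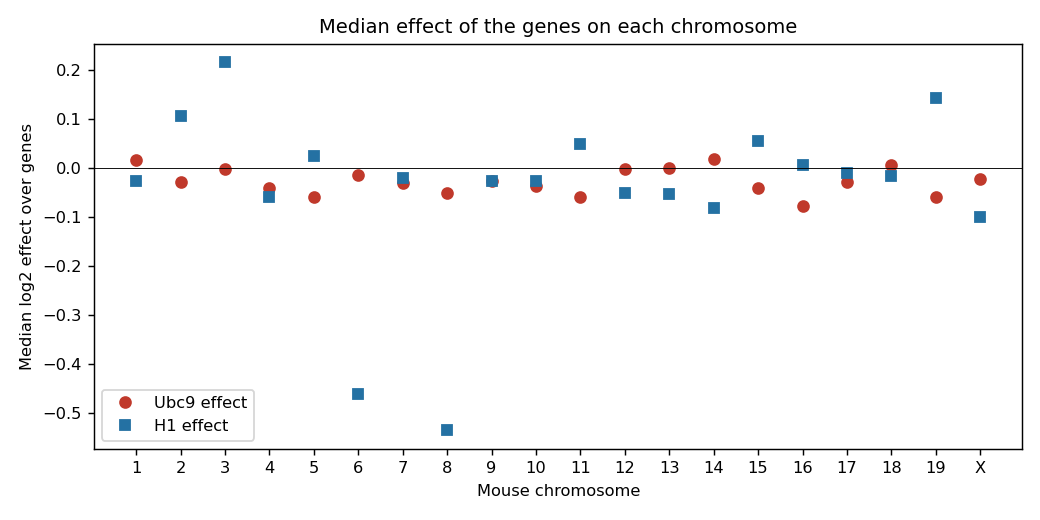
Points give the median log2 effect (y axis) of the genes on each mouse chromosome (x axis), circles for the Ubc9 effect and squares for the H1 effect. The H1 medians of chromosomes 6 and 8 are -0.46 and -0.54, below the range of the others, and the Ubc9 medians lie close to 0 throughout.

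Pluripotency genes were called about as often as other genes. Of 13 core genes 8 were called in neither (55% over all genes), Pou5f1 (effects 0.03 and 0.70), Sox2 (-0.17 and 0.39) and Sall4 (-0.23 and 0.44) among them. Nanog was at 817 and 637 CPM in Ubc9-depleted and 707 and 738 CPM in Ubc9-WT, and at 1906 and 2061 CPM in H1-TKO and 1331 and 1436 CPM in H1-WT. Its Ubc9 groups overlap, and its H1 groups do not but were not called (0.55, edgeR adjusted p = 0.092). Without H1-WT library 1 or 2, 8 core genes were higher in H1-TKO in place of 3. Of 25 naive genes 13 were called in neither, Fbxo15 and Manba were higher in both, Fgf4 and Gbx2 lower in both, and Dppa3 (-1.39 and 0.36), an oocyte and germline factor also known as Stella, Tcl1 and Spic fell with Ubc9 depletion alone. The 4 naive genes higher in H1-TKO became 10 or 13 without H1-WT library 1 or 2, and without a Ubc9-WT library none was higher in both. The SUMO pathway itself had 18 of 28 genes called in neither, near the share over all genes, with Sumo2, Sumo3, Sae1 and Uba2 among them. In H1-TKO 3 were higher and 0 lower, which became 14 and 4 without H1-WT library 1 and 10 and 9 without library 2, and the 6 lower after Ubc9 depletion became 14 without Ubc9-depleted library 2 and 1 or 2 without Ubc9-WT library 1 or 2. Senp3 fell with Ubc9 depletion alone (-0.41 and 0.76). Of 41 ribosomal protein genes 39 were called in neither, a count that rests on single libraries and on the scaling. Without H1-WT library 1 or 2, 18 or 36 were higher in H1-TKO, with the replicate block 9, and after Ubc9 depletion 12 were higher without Ubc9-depleted library 1 and 21 on library totals alone.

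Of 30 collagen genes kept, 18 were tested in both. Of these, 15 were higher after Ubc9 depletion (18.2% over all genes) and 3 in H1-TKO (8.58% over all genes), and for 9 called for Ubc9 and not for H1 the difference was not called. The shares over all genes are not matched for level, and some of these collagen genes were kept only through a treated group, such as Col9a3 at 0.275 CPM in Ubc9-WT. When genes were kept from 5 CPM, 9 of 11 were higher after Ubc9 depletion, against 1606 of 11120 genes. Col5a2 was at 13.3 and 12.9 CPM against 2.84 and 3.35 CPM in the Ubc9 libraries and 5.27 and 7.35 CPM against 1.18 and 0.652 CPM in the H1 libraries, and Col26a1 and Col4a2 were also higher in both. Without Ubc9-WT library 2 the 15 became 10. Col1a1, Col11a1 and Col13a1 had a called difference in the Ubc9 direction, Col9a2 was lower in both (-0.73 and -1.67), and the summed fibroblast markers were at 110 and 124 CPM in Ubc9-depleted against 125 and 134 CPM in Ubc9-WT, with 7 of 15 called higher and 1 lower after Ubc9 depletion. Metallothionein and detoxification genes had 12 of 22 lower after Ubc9 depletion (17.9% over all genes), and Mt1, Mt2, Nqo1 and Gstm3 were lower in both. Mt2, a zinc and copper store, was at 237 and 149 CPM against 371 and 419.5 CPM in the Ubc9 libraries and 742 and 918 CPM against 2191 and 4289.5 CPM in the H1 libraries. In the fit without chromosomes 6 and 8, which leaves out Mt1, Mt2 and Nqo1 on chromosome 8, 1 gene of the list was lower in both. Gsta3 (-0.59 and 1.5) and Gstm1 (-0.87 and 1.02) were lower after Ubc9 depletion and higher in H1-TKO.

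**Figure D5:**
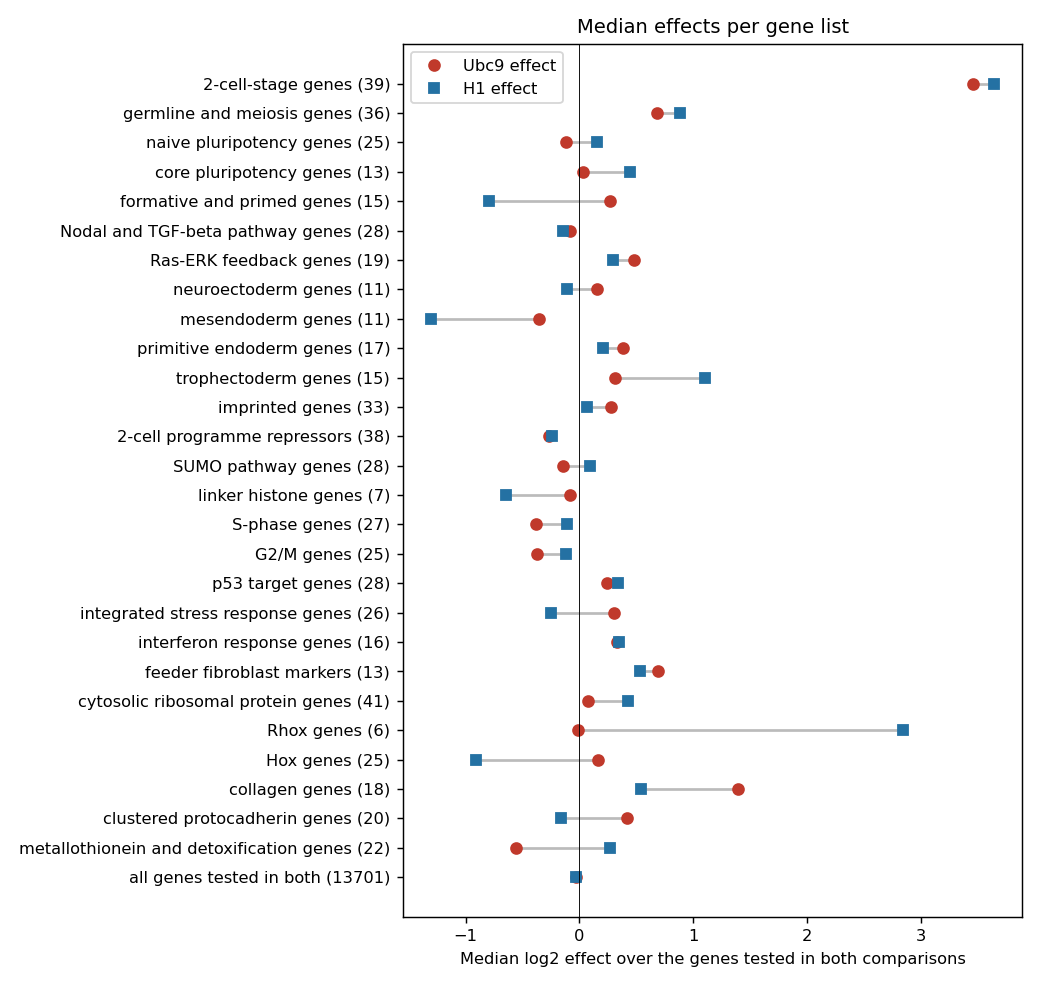
For each gene list (y axis, number of genes tested in both in brackets) the circle is the median Ubc9 effect and the square the median H1 effect (x axis, log2). The 2-cell-stage genes stand at 3.46 and 3.65, far from the medians over all genes at the foot, and the Rhox genes have the second largest H1 median (2.84).

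Genes tested in 1 table had too few counts for a test in the other. Of the 447 tested for Ubc9 alone, 307 were called higher and 10 lower, and of the 48 tested for H1 alone 15 were higher and 7 lower. A gene enters these sets through the group in which it is high, so the counts describe the sets and are no measure of response.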

How the data were processed

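PolyA-selected RNA of 4 Ubc9 libraries (ScriptSeq v2 kit) and 4 H1 libraries (Lexogen SENSE V2 kit) was sequenced, per the labels. The deposited values are whole-number read counts per gene, in a table for each experiment. Per the submitters' processing notes the authors used cutadapt, STAR, HTSeq and DESeq2 on mm10. For tool versions, annotation and strand, the answer is not given in the sources used here.

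Samples were grouped by title. Each table was fitted alone in edgeR 4.0.16 (R 4.3.3) with filterByExpr (minimum count 10, minimum total 15), TMM factors and a quasi-likelihood F test, with Benjamini-Hochberg adjustment over all genes tested (16499 and 14800) at 0.05. The difference of the effects was tested in 1 edgeR fit of all 8 libraries (16974 genes). A gene counts as changed in 1 comparison alone only where that difference was called. The 3 fits were tested on simulated data first. The genes, the 27 lists and the tests were chosen with earlier results of these data known.

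Genes were named by rule: the targeted genes, the 10 genes in each same-way class and 6 in each other class with the largest smaller effect or difference, a mean of 5 CPM or more in a group of each experiment and no overlap between libraries, passing over clone-named genes, and up to 4 genes with the largest effects per list. Others were named from the lists or after their values were seen, and a few genes are not reported here. Symbols were matched to GENCODE M21 by name (23376) or older name (670), and 375 were not matched. Alternatives were a 2-fold threshold, DESeq2 1.42.0, RLE factors, scaling by library totals, no filter, other member rules, a replicate block, the difference computed from the separate fits, leaving out chromosomes 6 and 8, and leaving out each library, where a lone library is assumed to vary like those of the other groups.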

Additional observations from a re-analysis of the deposited data

How the results depend on the processing

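With a 2-fold threshold there were 323 genes higher in both, 64 lower in both, 62 raised by Ubc9 depletion and lowered in H1-TKO, 13 the other way, and 238 higher and 31 lower with Ubc9 depletion alone. On library totals alone 248 were lower in both, 58 lower with Ubc9 and higher with H1, 585 higher and 97 lower with Ubc9 depletion alone, and 626 had a difference below 0. With DESeq2 507 were lower with Ubc9 depletion alone, 642 higher in H1-TKO alone and 1734 had a difference below 0. When the difference was computed from the separate fits, 688 were higher and 503 lower with Ubc9 depletion alone, and 2087 and 1649 differences were called above and below 0. RLE factors, no filter, both other member rules and the fit without chromosomes 6 and 8 left every class within 1.5 times its main count. Leaving out 1 library gave 285 to 919 genes higher in both, 138 to 1096 lower in both, 64 to 364 and 50 to 557 opposite, 177 to 607 higher and 85 to 457 lower with Ubc9 depletion alone, 188 to 1669 higher and 238 to 1544 lower in H1-TKO alone, and 703 to 3004 and 554 to 2901 differences above and below 0. The Ubc9 effect of Rps19, a ribosomal protein gene, was 0.41, 0.7 without Ubc9-depleted replicate 1 and -0.032 without replicate 2, and the cause was not tested, as in the other changes. A replicate block gave 601 genes higher in both, 512 lower in both, 205 and 191 opposite, 401 and 330 with Ubc9 alone, 529 and 663 with H1 alone and 1512 and 1298 differences. The numbers do not pair the libraries by any label, and deviations of same-numbered libraries correlated at -0.02 (Ubc9) and 0.21 (H1). Depth limits genes of few counts, such as Dux in the H1 libraries, and 2 libraries per group limit the rest.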
